A study of Mus musculus with 5 samples.

Results

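The genes that build cholesterol and fatty acids, together with the regulators that set their output, were examined in colitogenic CD4+ T cells and in naive T cells of the kind transferred to induce colitis. The list held 35 genes. Of these, 34 were measured among 18193 genes in all: 16 enzymes of sterol synthesis, 8 genes of sterol sensing, transport and efflux, and 10 enzymes of fatty acid synthesis and modification. Acat2 was not analysed here.

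Cells make cholesterol from acetyl-CoA through mevalonate, squalene and lanosterol, and make fatty acids from the same acetyl-CoA. Both arms are switched on by SREBP transcription factors, encoded by Srebf1 and Srebf2. When sterols are scarce, the escort protein Scap carries SREBP to the Golgi, where it is cut and freed to enter the nucleus, and when sterols are plentiful the Insig proteins hold Scap and SREBP in the endoplasmic reticulum. Activated T cells are known to raise SREBP activity when they grow and divide, and sterol efflux through Abca1 and Abcg1 is driven by the oxysterol receptor LXR.

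Gene expression was measured on 5 microarrays, each of CD3+CD4+ T cells on the BALB/c background. The cells of 4 arrays were sorted from colonic lamina propria (LP) of the CD45Rb Hi transfer model, in which CD45Rb Hi T cells of BALB/c mice are given to Rag1-/- recipients, hosts that have no mature T or B cells of their own. They were collected 6 weeks after transfer, and 2 arrays carried CXCR6 Hi cells (written CXCR6+ here) and 2 carried CXCR6 Lo cells (CXCR6-), where CXCR6 is the receptor of the chemokine CXCL16. The fifth array carried CD45Rb Hi naive T cells. Its source is labelled as spleen, while its description names the lamina propria of healthy mice, and the study's methods describe spleen. The labels give neither the number, age nor sex of the mice behind an array, so a p-value here speaks only to the spread from array to array. Values are the deposited signals, scaled so that the median of each array is 1. Differences are on the log2 scale, in which 1 is a doubling, and a gene passed when its limma p-value, adjusted over all 18193 genes, was under 0.05. Because there was 1 naive array, its spread was taken to be that of the LP groups.

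The naive array stood apart in more than its lipid genes. The summed signal of 5 T cell markers was 410 to 527 in LP T cells and 406 in naive T cells, but 3 of the 5 were lower on all 4 LP arrays and 1 was higher. Cd3e, a chain of the T cell receptor complex, was at 23.2 to 25.1 against 86.1, and Cd28, a costimulatory receptor, was at 215 to 230 against 33.5. For 6 B cell markers it was 4.198 to 5.355 in LP T cells and 55.0 in naive T cells, and 5 of the 6 were lower on all 4 LP arrays. By contrast, 10 myeloid markers summed to 272 to 356 against 163, with 6 higher and 3 lower on all 4 LP arrays, and 8 stromal markers summed to 100 to 161 against 17.3, with 6 higher and 2 lower. The 12 colonic epithelial markers summed to 45.3 to 93.6 against 107, of which Car1 gave 85.2 on the naive array, and 8 of the 12 were higher on all 4 LP arrays. Their sum was 47.7 and 45.3 on the first array of each subset and 79.3 and 93.6 on the second. Over all genes, 35% were higher and 40.9% were lower on all 4 LP arrays. No marker was listed at 0 on every array, but 1, the myeloid marker Itgam, was under a signal of 1 on all 5 (0.199 to 0.573). The ratio of the 3' to the 5' Gapdh probe sets was 2.81 to 6.96 in LP T cells and 1.51 in naive T cells, and Xist, a transcript of female cells, was at 188 to 215 against 0.864. Their part in the differences from naive T cells was not tested, and tissue, host, donor sex and preparation cannot be told apart from the cell state. In such sorted pools a difference in level per cell and a difference in the share of cells that express a gene cannot be told apart either.

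Among the 34 genes, 14 differed between the LP T cells and naive T cells (41.2%, where 33.9% of all genes did): 5 were higher in LP T cells (15.1% of all genes were) and 9 were lower (18.8% of all genes were). The 20 others did not pass. The sterol genes that passed lay on both sides of the naive level, and the 2 fatty acid enzymes that passed were lower. Dhcr7, Insig1, Srebf2, Scd1 and Fads2 lay more than 11-fold below the naive level, whereas Stard4, Sc5d and Hsd17b7 lay more than 3-fold above it. Ranked by signal over the 34 genes, pairs of LP arrays correlated at 0.925 to 0.983 and pairs with the naive array at 0.403 to 0.454 (Spearman), while over all genes the values were 0.951 to 0.957 and 0.821 to 0.826. These correlations are across genes, which are not independent replicates. The split between higher and lower genes depended on the scaling. It was 7 to 5 after quantile normalization (2772 to 2307 over all genes). With each array centred on its median gene it was 8 to 6 (4331 to 2189 over all genes). In the reported fit it was 2756 to 3414 over all genes. The median difference of all genes was 0.00 after quantile normalization and 0.41 with centred arrays, in place of -0.14. The calls also rested on both CXCR6- arrays, since 0 of the 34 genes and 0 of all genes passed by limma once either was left out (13 and 15 of the 34 then had an unadjusted p under 0.05). With 1 CXCR6+ array left out, fewer genes passed, among the 34 as over all genes, and those of the 34 that did were lower.

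Of the 16 sterol synthesis enzymes, 3 were higher in LP T cells, 5 were lower and 8 did not pass (50% passed, where 33.9% of all genes did). The median difference was -0.13 where that of all genes was -0.14. The largest change was at the last step. Dhcr7, which reduces the final precursor to cholesterol, had a signal of 4.166 and 4.997 in CXCR6+ cells, 4.35 and 4.38 in CXCR6- cells and 56.1 in naive T cells. All 4 LP arrays lay close together and far below the naive array, a 12.6-fold lower level (log2 difference -3.65 ± 0.26 (SE), adjusted p = 0.0119).

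Of the steps from mevalonate to farnesyl diphosphate, 3 were lower as well. Pmvk, which adds a phosphate to phosphomevalonate, was at 3.99 and 3.97 in CXCR6+ cells, 4.08 and 4.72 in CXCR6- cells and 11.7 in naive T cells. Mvd, which makes isopentenyl diphosphate, was at 1.98 and 2.30 in CXCR6+ cells, 1.597 and 1.783 in CXCR6- cells and 5.32 in naive T cells. Fdps, which joins isoprene units into farnesyl diphosphate, was at 2.51 and 3.83 in CXCR6+ cells, 2.69 and 3.01 in CXCR6- cells and 12.4 in naive T cells. None of the LP arrays reached the naive level for any of these 3 genes. Pmvk fell by 1.48 ± 0.25 (SE) on the log2 scale (adjusted p = 0.0256). Mvd fell by 1.49 ± 0.26 (adjusted p = 0.027). Fdps fell furthest, by 2.06 ± 0.35 (adjusted p = 0.0258). Lss, which closes squalene epoxide into lanosterol, was at 3.88 and 3.32 in CXCR6+ cells, 2.88 and 3.19 in CXCR6- cells and 7.58 in naive T cells, a 2.30-fold lower level (SE 0.26 on the log2 scale, adjusted p = 0.0405). Fdps, Pmvk, Mvd and Lss did not pass after quantile normalization, and Fdps and Mvd did not pass with the mean of their probe sets either.

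The enzymes above the naive level worked on squalene or on the sterol ring. Sc5d, the desaturase that acts just before Dhcr7, was at 34.1 and 45.3 in CXCR6+ cells, 37.0 and 29.4 in CXCR6- cells and 9.75 in naive T cells, a rise of 1.88 ± 0.32 (SE) on the log2 scale (adjusted p = 0.0259). Hsd17b7, a reductase in the removal of the ring's methyl groups, was at 11.7 and 16.1 in CXCR6+ cells, 9.89 and 10.5 in CXCR6- cells and 3.75 in naive T cells, a rise of 1.66 ± 0.31 (adjusted p = 0.0299). Sqle, the epoxidase that commits squalene to sterols, was at 16.8 and 19.0 in CXCR6+ cells, 13.6 and 13.7 in CXCR6- cells and 7.71 in naive T cells. The 3 genes were higher on all 4 LP arrays. Sqle rose by 1.02 ± 0.24 and lay at the threshold (adjusted p = 0.0498). Sqle did not pass with the mean of the probe sets or by the methods' t-test, and neither Sqle nor Lss passed without _s_at and _x_at probe sets. Hsd17b7 did not pass by that t-test, and neither Hsd17b7 nor Sc5d passed with signals floored at 1. Adjacent steps stood on opposite sides of the naive level in the reported fit: Sqle above and Lss below, and Sc5d above and Dhcr7 below. Each of these kept its sign in all 15 alternative fits.

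The 8 sterol enzymes that did not pass included the entry and the middle of the pathway. Hmgcs1, which makes HMG-CoA, was at 73.6 and 86.8 in CXCR6+ cells, 73.4 and 72.3 in CXCR6- cells and 83.6 in naive T cells, and the naive value lay within the LP range. The same was true of Idi1, the isomerase of isopentenyl diphosphate, of Cyp51, the lanosterol demethylase, and of Ebp, a sterol isomerase. Fdft1 (squalene synthase) and Nsdhl had positive differences of 0.49 and 0.34, whereas Mvk (mevalonate kinase) and the reductase Tm7sf2 had negative ones of -0.68 and -0.78. The adjusted p-values of these 8 genes were 0.0858 or more. The differences of Hmgcs1 and Cyp51 (-0.13 and -0.12) turned positive when arrays were centred on their median gene (0.42 and 0.43), as did that of Cyp51 after quantile normalization (0.52).

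**Figure D1:**
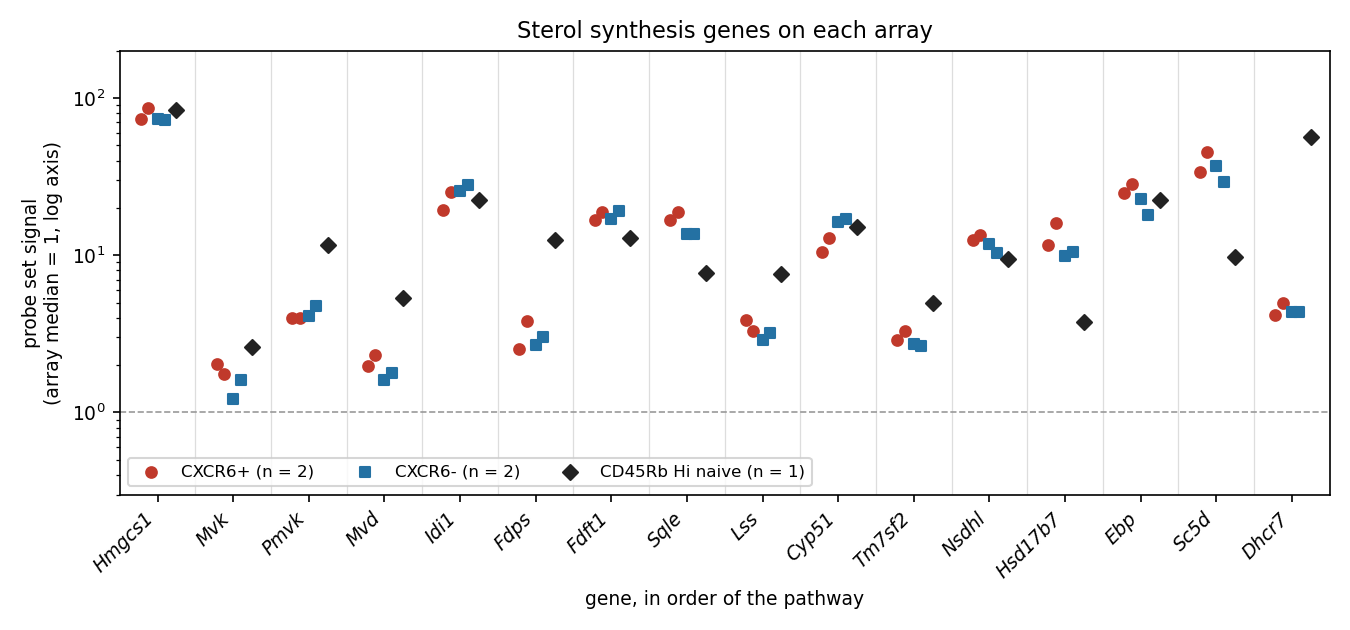
Signals of the 16 measured sterol synthesis enzymes on the 5 arrays, in pathway order, on a log axis with the array median at 1; each point is 1 array. The Dhcr7 points of the 4 LP arrays (4.166 to 4.997) lie far below the naive point (56.1), and those of Sc5d (29.4 to 45.3) lie above it (9.75).

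Among the sensors of the pathway, the Insig paralogs lay on opposite sides of the naive level. Insig1, which retains SREBP in the endoplasmic reticulum and is itself an SREBP target, was at 5.18 and 6.58 in CXCR6+ cells, 5.48 and 4.54 in CXCR6- cells and 73.0 in naive T cells. The level was 13.5-fold lower in LP T cells (log2 difference -3.76 ± 0.30 (SE), adjusted p = 0.012). Insig2, the paralog with the same retaining function, was at 21.5 and 20.9 in CXCR6+ cells, 20.4 and 17.9 in CXCR6- cells and 9.04 in naive T cells. Insig2 therefore moved the opposite way, with a rise of 1.15 ± 0.25 (adjusted p = 0.0397), and its other probe sets differed by 1.31 and 1.55. Of the paired transcription factors, Srebf2 passed and Srebf1 did not. Srebf2, whose product acts mainly on sterol genes, was at 3.53 and 2.98 in CXCR6+ cells, 1.89 and 2.79 in CXCR6- cells and 32.1 in naive T cells. It fell by 3.56 ± 0.35 (adjusted p = 0.0135), and its second probe set differed by -2.60. Srebf1, whose product acts mainly on fatty acid genes, was at 24.4 and 21.4 in CXCR6+ cells, 13.6 and 14.1 in CXCR6- cells and 13.3 in naive T cells, which did not pass (log2 difference 0.41, adjusted p = 0.267).

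Of the remaining genes of this group, Stard4 passed. Stard4, a carrier of cholesterol between membranes, was at 16.2 and 21.3 in CXCR6+ cells, 16.4 and 20.5 in CXCR6- cells and 3.24 in naive T cells, a rise of 2.51 ± 0.31 (SE) on the log2 scale (adjusted p = 0.0168). Its other probe sets differed by 0.98 and 0.24, so the size depends on the probe set, and their mean gave 1.25. The efflux transporters did not pass. Abca1, at 10.5 to 19.7 on the LP arrays and 6.85 in naive T cells, had a difference of 1.00 (adjusted p = 0.113). Abcg1, at 25.6 and 32.0 in CXCR6+ cells, 32.3 and 22.9 in CXCR6- cells and 56.9 in naive T cells, had one of -1.03 (adjusted p = 0.0923). Scap, at 17.1 to 30.0 on the LP arrays and 16.2 in naive T cells, had one of 0.41 (adjusted p = 0.324). In all, 2 of the 8 genes were higher, 2 were lower and 4 did not pass (50% passed, where 33.9% of all genes did). The naive value lay outside the LP range for each of the 8, as it did for 75.9% of all genes.

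The promoters of genes that parted are shown here because sterol-regulated promoters are known to pair SREBP sites with sites of NF-Y and Sp1. RefSeq windows (GRCm38.p6, 250 bases before to 50 bases after a start site) were at hand for 27 of the 35 listed genes, 36 windows in all. The windows were searched on both strands for CCAAT, the core bound by NF-Y, for GGGCGG, the GC box bound by Sp1, and for TCACNCCAC, the pattern used here for the sterol regulatory element. SREBP sites with other letters, or outside the windows, were not searched for. Each match is in capitals below, 5′ to 3′ on the gene's strand, so that a match on the opposite strand reads as its reverse complement. No match overlapped another in the printed windows. The first pair is Insig1 (chr5:28071162-28071461, plus strand), which fell, and Insig2 (chr1:121332540-121332839, minus strand, 1 of its 3 windows), which rose.
Insig1: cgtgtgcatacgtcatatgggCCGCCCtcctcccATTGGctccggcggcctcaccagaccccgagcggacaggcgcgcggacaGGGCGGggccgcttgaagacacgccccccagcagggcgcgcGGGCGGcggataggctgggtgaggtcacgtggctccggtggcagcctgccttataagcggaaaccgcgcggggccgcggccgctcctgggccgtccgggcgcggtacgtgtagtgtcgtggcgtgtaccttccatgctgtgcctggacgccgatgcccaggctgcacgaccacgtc
Insig2: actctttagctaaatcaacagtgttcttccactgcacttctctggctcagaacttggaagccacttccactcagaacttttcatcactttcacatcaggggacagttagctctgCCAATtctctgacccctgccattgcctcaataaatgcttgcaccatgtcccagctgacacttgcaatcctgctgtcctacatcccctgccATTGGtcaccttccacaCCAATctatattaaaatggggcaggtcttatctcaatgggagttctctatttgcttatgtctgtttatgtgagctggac
The second pair is Dhcr7 (chr7:143829964-143830263, plus strand, 1 of its 3 windows), which fell, and Sc5d (chr9:42264251-42264550, minus strand), which acts 1 step earlier and rose.
Dhcr7: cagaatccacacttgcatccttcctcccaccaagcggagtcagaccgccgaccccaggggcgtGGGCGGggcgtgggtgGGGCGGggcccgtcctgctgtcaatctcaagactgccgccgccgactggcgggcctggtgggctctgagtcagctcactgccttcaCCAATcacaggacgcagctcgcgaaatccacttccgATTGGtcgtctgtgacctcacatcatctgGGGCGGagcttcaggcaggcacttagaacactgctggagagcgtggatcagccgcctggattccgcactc
Sc5d: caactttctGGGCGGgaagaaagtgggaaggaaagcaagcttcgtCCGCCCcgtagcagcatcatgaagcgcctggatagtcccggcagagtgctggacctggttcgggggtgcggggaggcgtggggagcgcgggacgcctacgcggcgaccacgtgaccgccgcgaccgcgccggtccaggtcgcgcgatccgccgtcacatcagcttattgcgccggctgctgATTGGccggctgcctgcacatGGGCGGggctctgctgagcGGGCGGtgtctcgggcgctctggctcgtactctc
The last is Hmgcs1 (chr13:119690101-119690400, plus strand), which did not pass and was the only gene, of the 27 with a window, that had a match to TCACNCCAC.
Hmgcs1: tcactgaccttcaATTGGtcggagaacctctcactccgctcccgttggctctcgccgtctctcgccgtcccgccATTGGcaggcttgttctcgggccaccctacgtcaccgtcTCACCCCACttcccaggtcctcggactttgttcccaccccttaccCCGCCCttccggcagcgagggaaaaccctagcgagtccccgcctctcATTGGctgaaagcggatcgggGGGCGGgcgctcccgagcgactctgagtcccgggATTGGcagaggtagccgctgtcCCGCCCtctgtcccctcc
Where a gene had several windows, the one with the most matches is printed. The printed Insig2 window lacks GGGCGG, but at least 1 other of its 3 windows holds it. CCAAT was in 22 of the 36 windows (61.1%) and in 37.4% of all 32851 windows, and GGGCGG was in 27 (75.0%) and in 35.7% of all. TCACNCCAC was in 1 window (2.78%) and in 1.24% of all. By direction, CCAAT was in a window of 3 of the 3 genes that rose, 6 of the 7 that fell and 12 of the 16 that did not pass, and GGGCGG was in 3, 6 and 12 of them. Both motifs were thus present in genes that rose and in genes that fell.

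Of the 10 fatty acid enzymes, 0 were higher in LP T cells, 2 were lower and 8 did not pass (20% passed, where 33.9% of all genes did). Over all genes, 15.1% were higher and 18.8% were lower. The median difference was -0.91 where that of all genes was -0.14. The enzymes that passed put double bonds into fatty acids. Scd1, the stearoyl-CoA desaturase that makes monounsaturated fatty acids, was at 0.891 and 2.10 in CXCR6+ cells, 1.45 and 1.61 in CXCR6- cells and 42.3 in naive T cells. All 4 LP arrays were near the array median and the naive array was far above it, a 29.3-fold lower level in LP T cells (log2 difference -4.87 ± 0.56 (SE), adjusted p = 0.0156). With 1 added to each signal, which damps low values, the difference was 17.5-fold. The second Scd1 probe set was dimmer, at 0.428 and 0.468 in CXCR6+ cells, 0.531 and 0.719 in CXCR6- cells and 1.00 in naive T cells, and differed by -0.93. Fads2, which desaturates polyunsaturated fatty acids, was at 0.470 and 0.912 in CXCR6+ cells, 0.507 and 0.876 in CXCR6- cells and 11.0 in naive T cells. It fell by 4.06 ± 0.56 (adjusted p = 0.0193), or 7.14-fold with 1 added to each signal, and its other probe sets differed by -5.76 and -2.36.

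The 8 enzymes that did not pass were mostly below the naive level too. Scd2, the desaturase paralog, was at 13.1 and 14.9 in CXCR6+ cells, 18.1 and 28.6 in CXCR6- cells and 41.9 in naive T cells, a difference of -1.23 (adjusted p = 0.0757). Its other probe sets went opposite ways, at -5.41 and 0.31. Acaca, the carboxylase that makes malonyl-CoA, was at 5.11 and 5.75 in CXCR6+ cells, 4.29 and 4.58 in CXCR6- cells and 9.93 in naive T cells, and just missed the threshold (-1.02, adjusted p = 0.0509). Fads1, the partner desaturase of Fads2, was at 5.07 and 5.04 in CXCR6+ cells, 3.96 and 5.68 in CXCR6- cells and 9.67 in naive T cells (-0.98, adjusted p = 0.0895). Fasn, the fatty acid synthase, had a difference of -0.84 (adjusted p = 0.101) and Acly, which supplies cytosolic acetyl-CoA, one of -0.47 (adjusted p = 0.211). The elongases did not share a direction: Elovl5 and Elovl6 had differences of 0.76 and 0.77 and Elovl1 of -0.28, and after quantile normalization Elovl5 was at -0.0048 and Elovl1 at 0.052. Another Elovl1 probe set was at 2.20 and 1.02 in CXCR6+ cells, 1.75 and 1.55 in CXCR6- cells and 30.0 in naive T cells (-4.26). The rest of its probe sets differed by -0.11 and -0.16, and the mean of all gave -1.20 (limma, adjusted p = 0.0477). The other Elovl6 probe sets differed by 2.92 and 1.83, and that of Elovl5 by 0.26. All 4 LP arrays lay below naive for 8 of the 10 enzymes (80%, against 40.9% of all genes) and above it for 2 (20%, against 35%). Over all 34 genes, 18 lay below on all 4 arrays (52.9%, against 40.9% of all genes) and 12 lay above (35.3%, against 35% of all genes). With arrays centred on their median gene, the signs in the fatty acid arm were 4 positive and 6 negative, since Acly (0.08) and Elovl1 (0.27) turned.

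**Figure D2:**
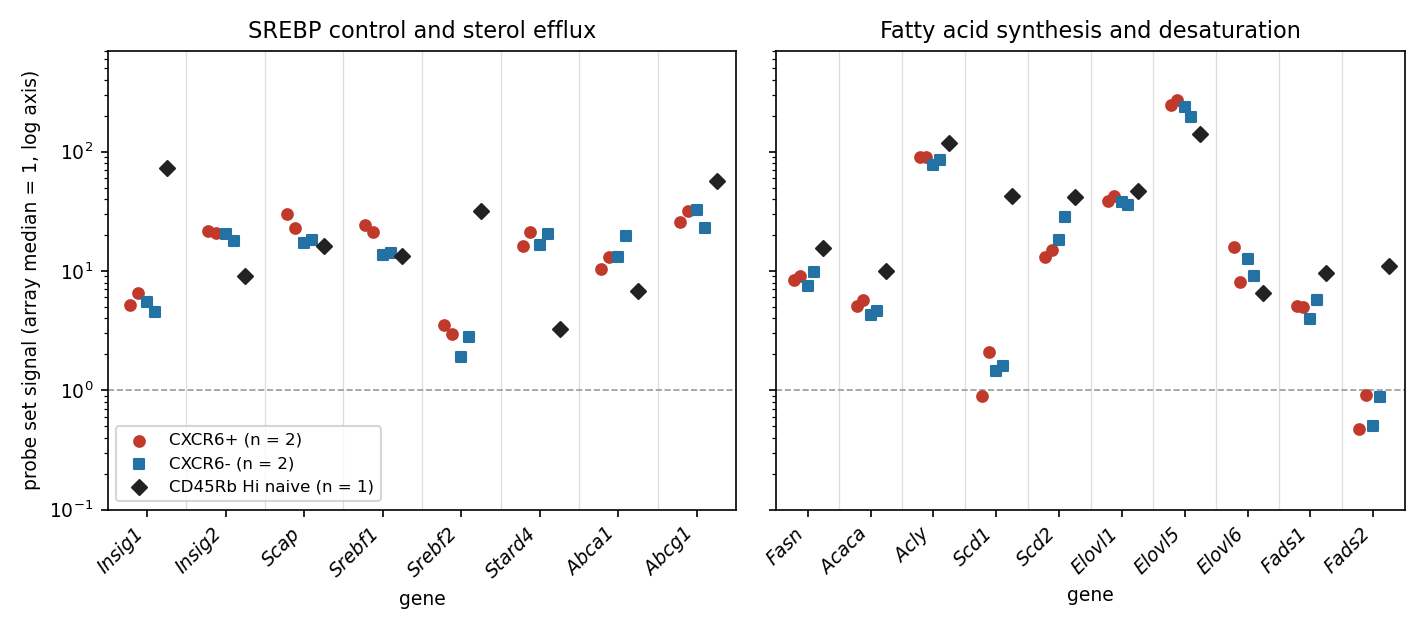
Signals of the 8 genes of sterol sensing, transport and efflux and of the 10 fatty acid enzymes on the 5 arrays, on a log axis with the array median at 1; each point is 1 array. Insig1, Srebf2, Scd1 and Fads2 show the naive point far above the 4 LP points, and Stard4 and Insig2 show it below.

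**Figure D3:**
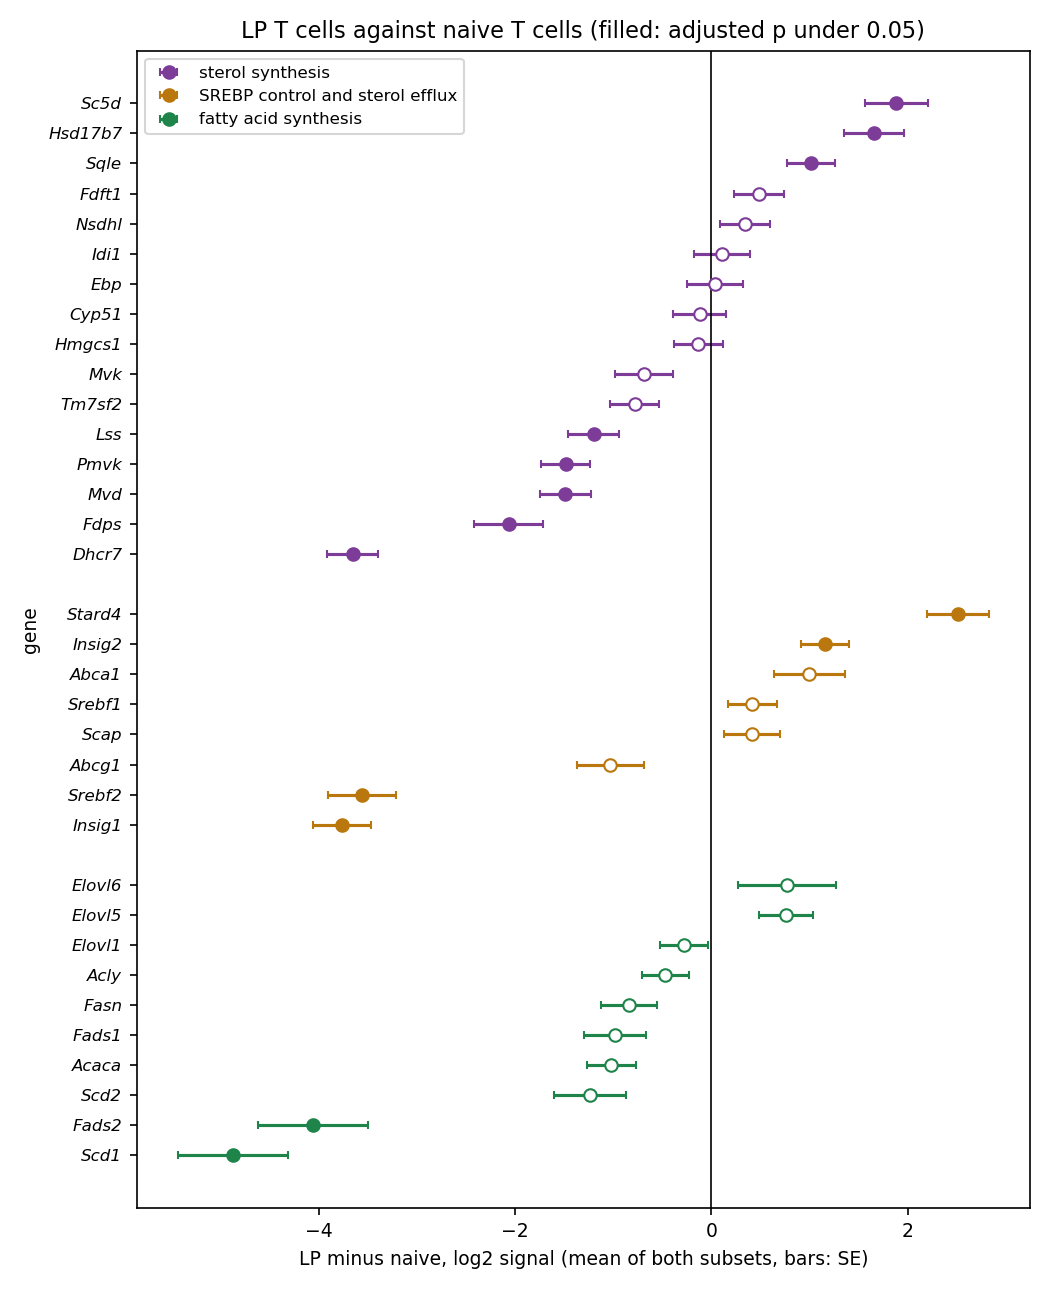
Log2 difference of LP T cells (mean of both subsets) from naive T cells for the 34 genes, by arm, with bars that show the SE. Filled points passed at an adjusted p under 0.05. The 14 genes that passed run from -4.87 (Scd1) to 2.51 (Stard4).

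The probe set chosen for a gene was the one with the highest mean signal, and 25 of the 34 genes had others. Of the 47 other probe sets, 40 differed from naive in the direction of the chosen one and 7 in the opposite direction. Among the 33 with a mean signal of at least 1, the numbers were 29 and 4. Acly had a second probe set at 17.1 and 16.2 in CXCR6+ cells, 12.5 and 10.9 in CXCR6- cells and 57.3 in naive T cells, a difference of -2.04. For Hmgcs1, 1 of its 4 others was at 4.61 and 4.23 in CXCR6+ cells, 5.18 and 4.99 in CXCR6- cells and 17.8 in naive T cells. Both probe sets were thus well below the naive level in genes whose brightest probe set did not pass. Fdft1 and Scap were the reverse case, each with a second probe set below the naive level (-0.54 and -0.68) under a brightest one that lay above it.

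**Figure D4:**
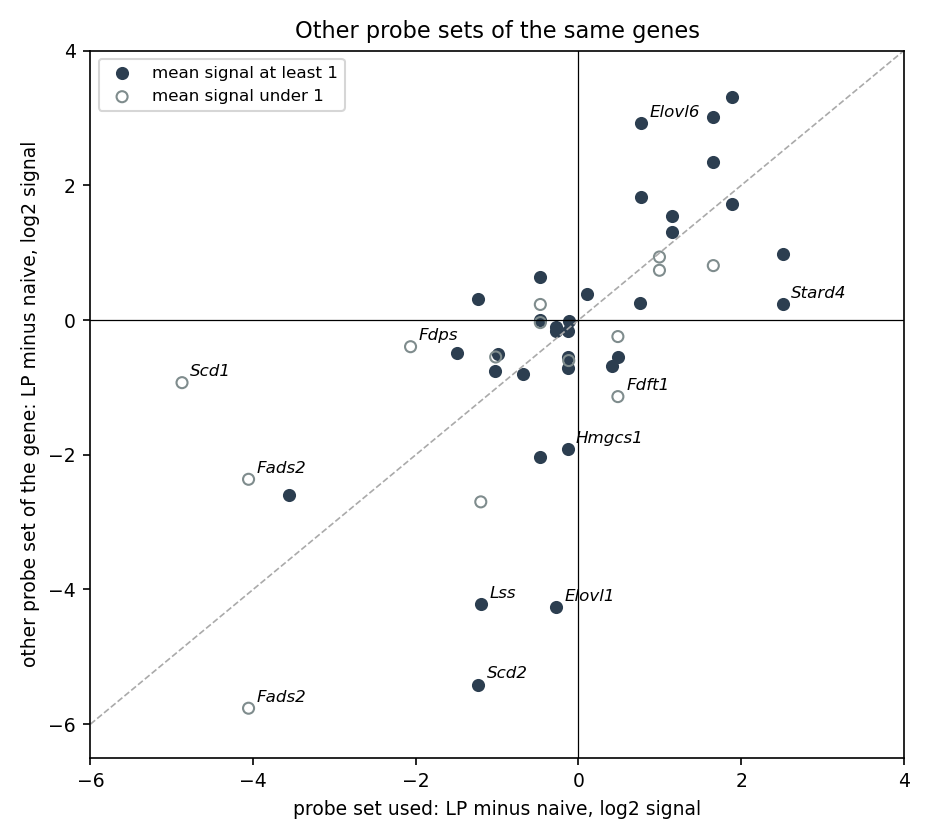
Log2 difference of LP T cells from naive T cells by the chosen probe set of a gene (x axis) and by each of its other probe sets (y axis), for the genes with more than 1. Of the 47 points, 40 lie in the quadrants where both have the same sign.

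Against naive T cells, each subset gave much the same picture. In CXCR6+ cells 13 of the 34 genes passed (38.2%, where 28.6% of all genes did), 5 higher and 8 lower. In CXCR6- cells 11 passed (32.4%, where 29.5% of all genes did), 2 higher and 9 lower. The same 10 genes passed in both: Pmvk, Mvd, Fdps, Sc5d, Dhcr7, Insig1, Srebf2, Stard4, Scd1 and Fads2. Both comparisons share the naive array, so they are not independent. Sqle, Hsd17b7 and Insig2 passed in CXCR6+ cells and not in CXCR6- cells, where their adjusted p-values were 0.0976, 0.0504 and 0.0586, and Lss passed in CXCR6- cells and not in CXCR6+ cells (adjusted p = 0.0658). The difference between the subsets did not pass for any of these 4 genes, with unadjusted p-values of 0.153, 0.199, 0.538 and 0.357 in that order.

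Between CXCR6+ and CXCR6- cells, 0 of the 34 genes passed (limma, where 0% of all genes did), and the methods' t-test gave 0 after adjustment too. At an unadjusted p under 0.05 there were 2 genes by the methods' t-test, where 7.05% of all genes were, and 1 gene by limma, where 6.55% were. That gene was Srebf1, whose 2 CXCR6+ arrays (24.4 and 21.4) lay above its 2 CXCR6- arrays (13.6 and 14.1), with the naive array at 13.3. The difference was 0.72 on the log2 scale (95% interval 0.08 to 1.36, unadjusted p = 0.0355, adjusted p = 0.722). Scap, the escort of SREBP, was next, at 30.0 and 23.0 against 17.1 and 18.1 (0.58, -0.16 to 1.31, unadjusted p = 0.0926). Sqle was at 16.8 and 19.0 against 13.6 and 13.7 (0.39, -0.24 to 1.02, unadjusted p = 0.153). Scd2 and Cyp51 lay the other way. Scd2 was at 13.1 and 14.9 against 18.1 and 28.6 (-0.70, -1.64 to 0.24, unadjusted p = 0.105), and the mean of its probe sets gave 0.09. Cyp51 was at 10.5 and 13.0 against 16.2 and 17.0 (-0.51, -1.198 to 0.178, unadjusted p = 0.106), and its second probe set also gave -0.52.

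Over the 34 genes, 26 differences between the subsets were positive and 8 were negative, with a median of 0.14 where that of all genes was 0.08. The 2 CXCR6+ arrays and the 2 CXCR6- arrays did not overlap for 21 genes (61.8%, against 39.5% of all genes), with CXCR6+ above for 17 (50%, against 25.1%) and below for 4 (11.8%, against 14.3%). The T cell markers moved the same way, with summed signals of 476 and 527 in CXCR6+ cells and 423 and 410 in CXCR6- cells and 3 of 5 above without overlap. The Gapdh 3' to 5' ratio was 2.81 and 3.98 in CXCR6+ cells and 4.19 and 6.96 in CXCR6- cells, and their part in these signs was not tested. The precision was limited: the half-width of the 95% intervals ran from 0.62 (Acly) to 1.45 (Scd1), and 16 of the 34 intervals reached a doubling or a halving. Replicates of the same subset differed by a median of 0.22 (CXCR6+) and 0.18 (CXCR6-) over the 34 genes, and by at most 1.23 (Scd1) and 0.79 (Fads2).

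**Figure D5:**
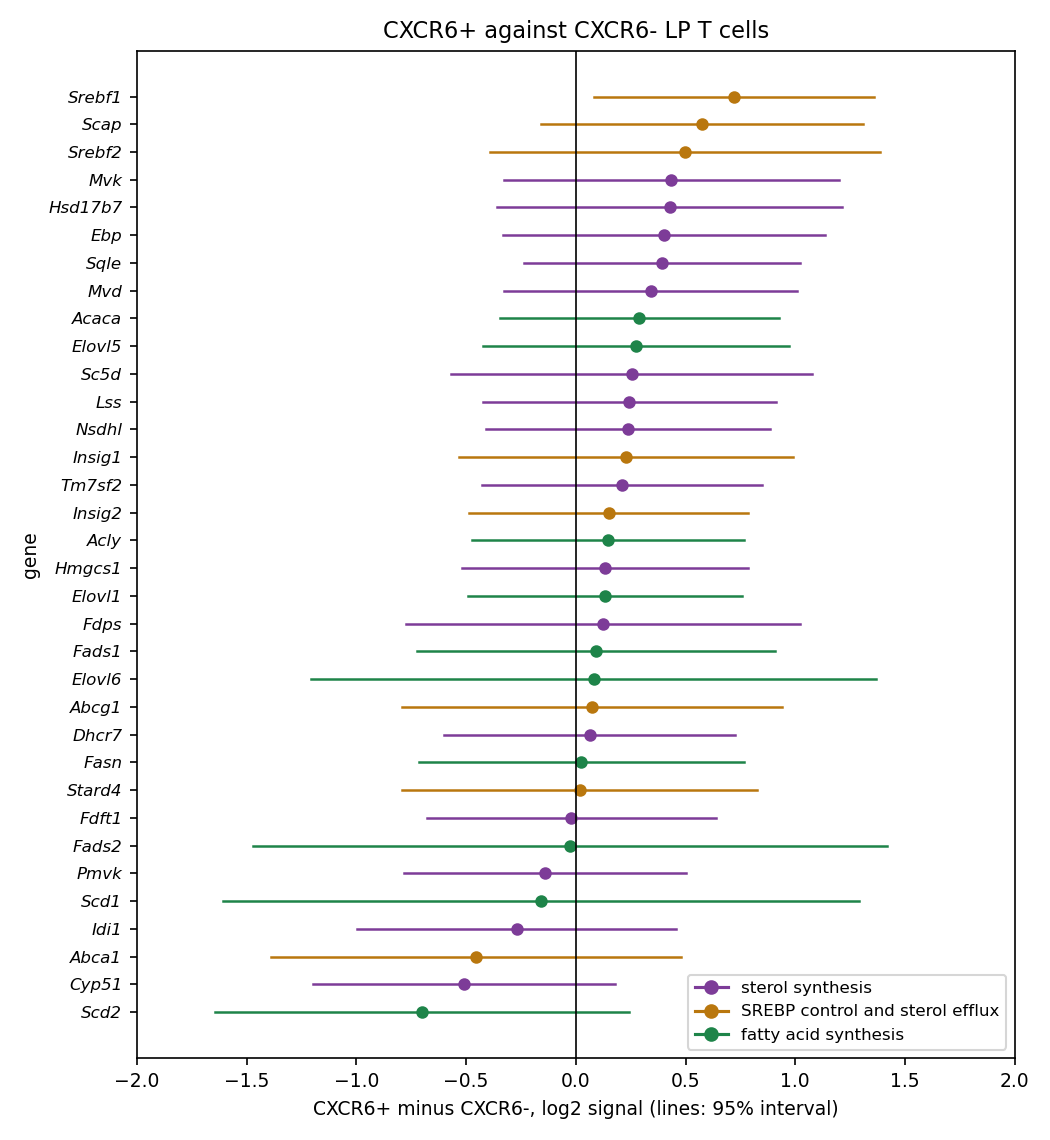
Log2 difference of CXCR6+ from CXCR6- cells for the 34 genes, by arm, with 95% intervals (2 arrays in each subset). The interval of Srebf1 (0.08 to 1.36) lies above 0, and 16 intervals reach 1 or -1.

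Further genes of sterol and fatty acid handling were taken from lists fixed alongside the synthesis genes. Of 16 measured sterol genes (of 23 listed), 3 were higher in LP T cells, 6 were lower and 7 did not pass (56.2% passed, where 33.9% of all genes did). The largest was Apoe, the lipoprotein component that macrophages also make in quantity, at 49.08 and 94.96 in CXCR6+ cells, 70.0 and 67.9 in CXCR6- cells and 3.32 in naive T cells (4.37 ± 0.46 (SE), adjusted p = 0.0145). The myeloid marker Cd14 stood at 58.5 to 93.0 in LP T cells and 1.95 in naive T cells, the largest rise of the 10 myeloid markers. Of those 10, 6 were higher and 3 lower on all 4 LP arrays (35% and 40.9% of all genes were). Among the lower ones, Tyrobp was at 8.90 to 19.4 against 58.7. The part of myeloid cells in the Apoe value was not tested. Mylip, the ligase that degrades the LDL receptor and an LXR target, rose by 2.61 on the log2 scale (48.4 and 60.9 in CXCR6+ cells, 55.2 and 59.0 in CXCR6- cells and 9.12 in naive T cells, adjusted p = 0.0145). Nceh1, a cholesteryl ester hydrolase, fell by 2.77 (3.85 and 4.63, 2.70 and 3.08, and 23.8 in the same order, adjusted p = 0.0135). Ggps1, which makes geranylgeranyl diphosphate from the product of Fdps, fell by 2.53 (7.494 and 6.997, 6.62 and 5.71, and 38.6, adjusted p = 0.0141).

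Of 26 measured fatty acid genes (of 27 listed), 3 were higher in LP T cells, 5 were lower and 18 did not pass (30.8% passed, where 33.9% of all genes did). Fads3, the third gene of the Fads cluster, was at 0.133 and 0.151 in CXCR6+ cells, 0.090 and 0.068 in CXCR6- cells and 7.31 in naive T cells (-6.12 ± 0.30 (SE), adjusted p = 0.0119). Because the LP signals were far under the array median, the size rests on low values, and with 1 added to each signal the level was 7.49-fold lower. Acss2, which makes acetyl-CoA from acetate, was at 2.81 and 2.99, 2.87 and 3.92, and 33.2 in the same order (-3.41 ± 0.30, adjusted p = 0.0125). Both lay on the same side of the naive level as Fads2 and Scd1. Dgat1, which stores fatty acids as triglyceride, lay on the other side, at 222 and 271, 208 and 138, and 9.61 (4.41 ± 0.36, adjusted p = 0.0121). Me1, which supplies NADPH for lipid synthesis, rose by 2.35 from a low level (1.08 and 1.37, 1.41 and 1.32, and 0.253, adjusted p = 0.0158), or 1.83-fold with 1 added to each signal. Between the subsets limma called 0 genes of either list. An unadjusted limma p under 0.05 was reached by 0 of the 16 sterol genes and 3 of the 26 fatty acid genes, and by 6.55% of all genes.

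Cell cycle genes are given beside these values because lipid synthesis is known to accompany division. The summed signal of 14 such genes was 485 to 649 in LP T cells and 632 in naive T cells. On all 4 LP arrays 5 lay above the naive level (35.7%, against 35% of all genes) and 8 below it (57.1%, against 40.9%). By the test 6 passed (42.9%, where 33.9% of all genes did), 1 higher and 5 lower (Birc5, Ccna2, Aurkb, Mcm2 and Mcm3), and 8 did not pass. Mki67, a mark of dividing cells, was the higher one, at 88.8 to 126 in LP T cells and 52.6 in naive T cells (adjusted p = 0.0493). Birc5, which acts in chromosome segregation, was at 6.40 to 8.62 in LP T cells and 75.3 in naive T cells (adjusted p = 0.0127). Their part in the lipid gene values was not tested.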

How the data were processed

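RNA of sorted T cells was hybridised to a GeneChip mouse genome array, with 1 array per sample. The authors deposited 1 table of 45101 probe sets, in which each value is a linear signal intensity scaled to an array median of 1. The submitters' processing notes name RMA and the methods name GeneSpring, and neither describes the scaling. Probe set signals of 0 (2 values) were set to 0.001 before log2. Probe sets with 1 symbol (34945) were used, with several (932) or none (9211) left out, as were 13 control probe sets with a symbol. The highest-mean probe set stood for each of 18193 genes. The members and gene lists were chosen with earlier results of these data known. Named genes were those that passed against naive T cells, the 5 with the largest differences in each arm, the SREBP, Insig and Scd pairs, the 5 with the smallest p between the subsets, and 4 of each further list. Other genes are named as examples.

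Groups (CXCR6+ n = 2, CXCR6- n = 2, naive n = 1) were fitted together in limma (version 3.58.1, R 4.3.3), with 2 residual and 1.678 prior degrees of freedom, two-sided, Benjamini-Hochberg over all genes, at a threshold of 0.05. LP against naive compares the mean of both subsets with the naive array. Array number limits the precision. The fit was tested on simulated data. Alternatives tried were averaging the probe sets of each gene, no _s_at or _x_at types, a 40th percentile filter, quantile or median scaling, a variance trend, 1 added to the signals, a floor of 1, a 2-fold minimum, the methods' t-test, each LP array left out, and a replicate term added after the data were seen. Figures were drawn with matplotlib 3.10.9 in Python 3.11.15.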

Additional observations from a re-analysis of the deposited data

How the results depend on the processing

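In counts over the 34 genes, the sterol enzymes had 3 higher and 5 lower, the sensing and efflux genes 2 and 2, the fatty acid enzymes 0 and 2, and CXCR6+ and CXCR6- cells had 13 and 11 genes passing against naive T cells. With the 40th percentile filter the fatty acid counts were 1 higher and 6 lower, and 21 and 21 genes passed in the subsets. With 1 added to each signal they were 1 and 6, with 21 and 20, and with a variance trend and robust fitting 1 and 6, with 22 and 22. Calls over all genes changed as well. Of 10916 genes, 2422 were higher and 4421 lower in LP T cells with the filter. Of 18193 genes, 2817 and 5086 were so with 1 added, and 3545 and 4757 with the variance trend. The reported fit had 2756 and 3414. The mean of the probe sets gave 3 sterol enzymes lower and 4 fatty acid enzymes lower, and leaving out the _s_at and _x_at types gave 3 sterol enzymes lower. Quantile normalization gave 1 sterol enzyme lower, array medians gave 2 sterol enzymes lower and 1 fatty acid enzyme higher, and a floor of 1 gave 1 sterol enzyme higher. The methods' t-test gave 1 sterol enzyme higher and 0 genes in either subset. With the replicate block as a fixed term there were 0 sterol enzymes higher, 2 sterol enzymes lower and 1 sensing gene higher, and 0 genes passed in either subset. Over all genes, those higher and lower were 1988 and 2578 with the mean of the probe sets and 2576 and 3333 without the _s_at and _x_at types. They were 2772 and 2307 after quantile normalization, 4331 and 2189 with array medians and 1068 and 3321 with a floor of 1. The methods' t-test gave 2027 and 2669, and the replicate block 1705 and 1807. The planned random block had no estimate with 5 arrays in 3 groups and was not run, and the labels do not say that a number marks a shared batch. Replicate differences of the subsets correlated at 0.0193 over all genes, but 10 of 12 epithelial markers were higher on the second array in both subsets, so whether the numbers pair the arrays is not settled by these 2 pairs. With 1 array left out, 0 sterol enzymes were higher, 0 to 1 lower, 0 sensing genes higher, 0 to 2 lower, 0 to 2 fatty acid enzymes lower, and 0 genes passed in either subset. Signs turned under array medians for Acly (0.081), Cyp51 (0.43), Elovl1 (0.27) and Hmgcs1 (0.42), under quantile normalization for Cyp51 (0.52), Elovl1 (0.052) and Elovl5 (-0.0048), with the mean of the probe sets for Fdft1 (-0.36), Scap (-0.14) and, between the subsets, Scd2 (0.094), without the _s_at and _x_at types for Fdft1 (-0.54), and for Ebp without the second CXCR6+ array (-0.0053) or the first CXCR6- array, with a range of -0.046 to 0.127 over the arrays left out. None of these passed in the reported fit. Dhcr7, Insig1, Srebf2 and Scd1 passed in 13 of the 15 alternatives, all but those without a CXCR6- array, and Stard4 and Fads2 in 11. The causes were not tested.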

Other observations

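Of the further fatty acid genes, 3 had an unadjusted limma p under 0.05 between the subsets, where 6.55% of all genes did. They were picked out after their values were seen. Hacd2, a dehydratase of very long chain fatty acid elongation, was at 33.7 and 29.9 in CXCR6+ cells, 15.8 and 13.1 in CXCR6- cells and 10.1 in naive T cells, a log2 difference between the subsets of 1.14 (limma, unadjusted p = 0.0109, adjusted p = 0.626). Acsl3, which activates long chain fatty acids, went the opposite way, at 1.11 and 1.13 in CXCR6+ cells, 2.61 and 3.99 in CXCR6- cells and 7.47 in naive T cells (-1.53, limma, unadjusted p = 0.0096, adjusted p = 0.626). Fads3 differed by 0.86 (limma, unadjusted p = 0.0363, adjusted p = 0.725) at signals far under the array median. The arrays of the subsets did not overlap for any of the 3 genes, as for 39.5% of all genes. Having been picked by their p-values on these same arrays, the 3 genes gain no support from this.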
